A study of Homo sapiens with 12 samples.

Results

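Kinesins are motor proteins that hydrolyse ATP to move along microtubules or to take microtubule ends apart. Their genes were picked out of a table of RNA-sequencing counts from human H1299 cells, a non-small cell lung cancer line, by their symbols: every gene whose symbol begins with KIF or KIFC followed by a digit. Of the 13853 genes listed, 37 matched: 36 motor genes and KIF9-AS1, an antisense RNA to KIF9. All 37 had enough reads to be tested. By their known roles, 12 motor genes were classed as mitotic, 15 as intracellular transport, 4 as genes of cilia or Hedgehog signalling and 5 as other. KIF2B, KIF4B, KIF6, KIF12, KIF19, KIF25 and KIF28P were not analysed here.

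RNA from 2 groups was sequenced in 6 libraries. The control cells (shNT, 3 libraries) carried a control vector, and the knockdown cells (shGAS41, 3 libraries) carried a short hairpin RNA against GAS41. GAS41 is the protein encoded by YEATS4, a YEATS-domain reader of acetylated histones found in chromatin-remodelling complexes. Both groups went through viral infection and then selection with a drug, and the labels name no second hairpin. Whether libraries of a group stem from separate cultures is not stated. A p-value here therefore reflects the spread among these libraries alone, which may be technical. Library totals ran from 58629147 to 72747010 counts. Levels are CPM, a gene's share of its library's counts on a per-million-count scale, adjusted by trimmed mean of M values (TMM) and given as mean ± SD of 3 libraries. Changes are log2 fold changes of shGAS41 over shNT with their standard error (SE). A gene is said to have risen or fallen where its adjusted p was under 0.05 by the quasi-likelihood test of edgeR, adjusted by Benjamini-Hochberg over all 13846 genes tested.

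YEATS4 stood at 44.1, 47.1 and 47.6 CPM in the shNT libraries and at 1.66, 1.77 and 2.01 CPM in the shGAS41 libraries, a change of -4.68 ± 0.09 on the log2 scale (adjusted p = 6.35e-10). The knockdown libraries matched their labels in the targeted gene. Much of the transcriptome differed between the groups: 68.1% of all genes tested changed, with 34.5% falling and 33.6% rising, and the groups did not overlap at 72.3% of genes. The median log2 fold change over all genes was -0.01. Every count of kinesins that follows is to be read against these shares. KRT8, KRT18, VIM, CDH2 and FN1, genes of the keratin and mesenchymal programmes seen in this line, had reads in every library. The epithelial markers EPCAM, CDH1 and KRT19 and the markers of leukocytes and endothelium PTPRC, CD14, PECAM1 and VWF were not analysed here.

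The kinesin family falls into groups by direction and place of work. Mitotic kinesins build the bipolar spindle, move and align chromosomes, and organise the central spindle and midbody at cytokinesis, and their genes are transcribed mainly late in the cell cycle. Transport kinesins carry vesicles, organelles and messenger ribonucleoproteins through cells that need not be dividing. Many late cell cycle genes carry a cell cycle homology region in their promoter, a short element contacted by the LIN54 subunit of the MuvB complex, which works as the repressive DREAM complex in resting cells and with MYBL2 and FOXM1 in dividing ones. CCAAT boxes, bound by NF-Y, often lie upstream of it.

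The promoter letters below are shown because 9 of the 12 mitotic kinesins hold both elements and most transport kinesins with a promoter entry do not. They are RefSeq promoters of build GRCh38.p14, from 80 bases before to 30 bases after the annotated start, in the direction of transcription. Capitals mark the core of the cell cycle homology region, taken as TTTGAA or TTCGAA on either strand (so TTCAAA too), and the CCAAT box, taken as CCAAT on either strand (so ATTGG too). The letters of these motifs do not overlap one another in the sequences shown. Of the mitotic genes, KIF11, KIF4A and KIF14 hold the box about the same number of bases before the core, 20, 19 and 18 bases. KIF18B, KIF18A and KIF22 have 29, 30 and 34 bases between them.
KIF11 (chr10:92593050-92593159, plus strand): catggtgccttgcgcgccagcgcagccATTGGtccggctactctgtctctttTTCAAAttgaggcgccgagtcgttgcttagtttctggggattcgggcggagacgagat
KIF4A (chrX:70290024-70290133, plus strand): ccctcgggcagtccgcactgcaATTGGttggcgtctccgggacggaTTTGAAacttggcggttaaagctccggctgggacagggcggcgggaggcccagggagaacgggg
KIF14 (chr1:200620722-200620831, minus strand): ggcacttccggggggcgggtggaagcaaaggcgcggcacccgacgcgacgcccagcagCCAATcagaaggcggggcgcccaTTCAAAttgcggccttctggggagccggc
KIF18B (chr17:44947744-44947853, minus strand): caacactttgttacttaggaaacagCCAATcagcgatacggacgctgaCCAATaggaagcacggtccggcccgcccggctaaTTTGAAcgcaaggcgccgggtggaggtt
KIF18A (chr11:28108127-28108236, minus strand): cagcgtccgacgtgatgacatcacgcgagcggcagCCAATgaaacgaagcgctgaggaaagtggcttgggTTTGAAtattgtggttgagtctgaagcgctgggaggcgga
KIF22 (chr16:29790671-29790780, plus strand): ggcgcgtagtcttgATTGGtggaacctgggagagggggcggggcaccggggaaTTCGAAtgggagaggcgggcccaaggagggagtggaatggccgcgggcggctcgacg

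Other mitotic kinesins differ in the distance. In KIFC1 45 bases separate box and core, and in KIF23 only 4. KIF20B, whose letters are not shown, has 117 and 123 bases between box and core, with cores 25 and 31 bases downstream of the start. KIF2C matches neither pattern in its searched window, though other forms of the core were not searched for. KIF24, classed with the cilia genes, matches both. The last pair of sequences are transport genes: KIF17, with neither element, and KIF5B, with a box but no core in the part printed.
KIFC1 (chr6:33391743-33391852, plus strand): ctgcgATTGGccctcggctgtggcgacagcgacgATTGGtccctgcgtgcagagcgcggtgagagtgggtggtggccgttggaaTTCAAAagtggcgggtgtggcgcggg
KIF23 (chr15:69414269-69414378, plus strand): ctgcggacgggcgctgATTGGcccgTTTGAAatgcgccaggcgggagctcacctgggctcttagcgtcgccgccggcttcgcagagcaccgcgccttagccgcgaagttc
KIF2C (chr1:44739757-44739866, plus strand): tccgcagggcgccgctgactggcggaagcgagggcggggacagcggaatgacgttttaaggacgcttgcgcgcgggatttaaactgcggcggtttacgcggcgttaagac
KIF24 (chr9:34329239-34329348, minus strand): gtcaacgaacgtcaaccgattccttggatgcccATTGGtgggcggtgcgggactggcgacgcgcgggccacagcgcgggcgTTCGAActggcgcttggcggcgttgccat
KIF17 (chr1:20717978-20718087, minus strand): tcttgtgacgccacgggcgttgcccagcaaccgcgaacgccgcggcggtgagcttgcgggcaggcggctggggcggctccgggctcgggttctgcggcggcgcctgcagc
KIF5B (chr10:32056396-32056505, minus strand): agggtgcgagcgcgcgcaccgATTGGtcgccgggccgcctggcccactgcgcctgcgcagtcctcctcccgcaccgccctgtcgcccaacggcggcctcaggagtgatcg

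Counted over windows from 250 bases before to 50 after the start, the core was present in 10 of 12 mitotic kinesins (83.3%), the exceptions being KIF2C and KIF20A. It was present in 1 of the 11 transport kinesins with a promoter entry (9.09%), KIF5B, where it lies 140 bases upstream. Among all 15842 protein-coding genes of the promoter table the share was 17.5%. A CCAAT box was found in 10 mitotic kinesins (83.3%), in 4 transport kinesins (36.4%) and in 42.1% of all coding genes. Both elements stood in the same window in 9 mitotic kinesins (75%), in 1 transport kinesin (9.09%) and in 7.28% of all coding genes. KIF5A, KIF13B, KIFC2, KIFC3, KIF27, KIF21B and KIF26B are named only, without a promoter. A match describes letters in a window and is neither a shown binding site nor a cause of any change, and the motifs were looked for with the class difference already known.

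**Figure D1:**
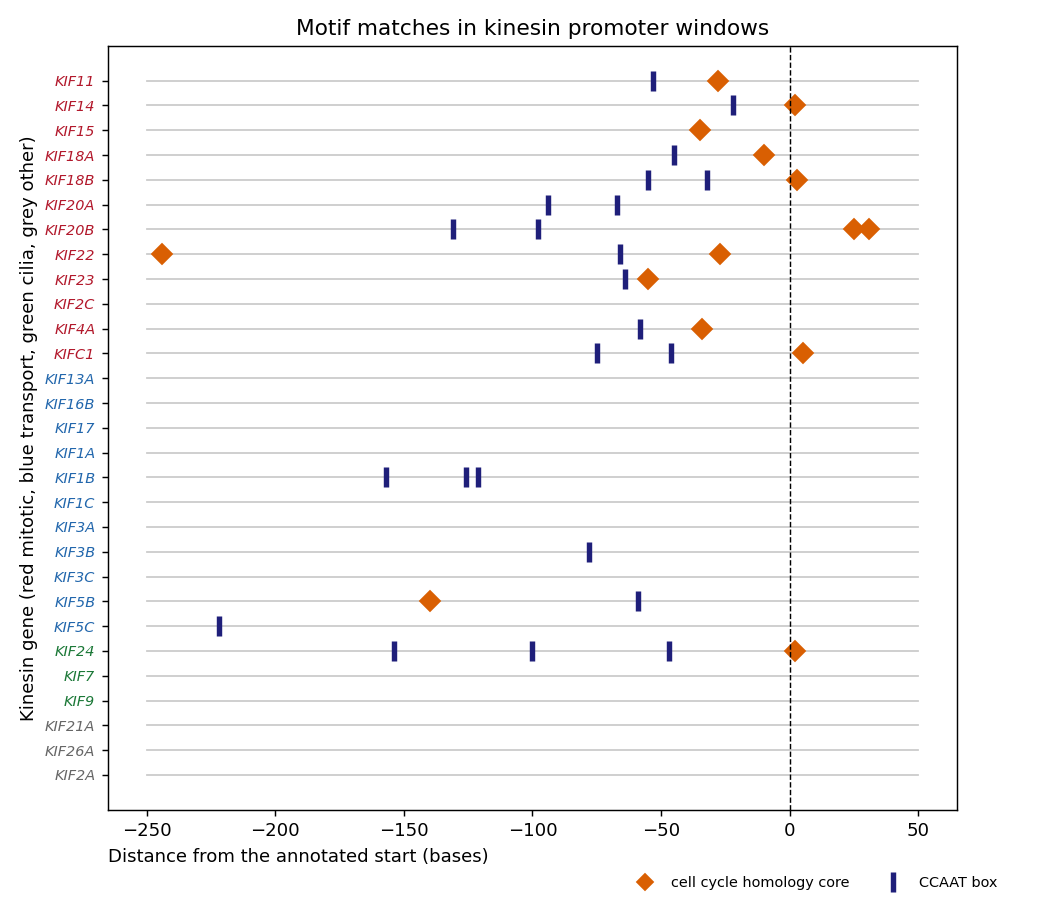
Positions of the cell cycle homology core (orange diamonds) and of CCAAT boxes (dark bars) in the promoter windows of 29 kinesin genes, in bases from the annotated start (dashed line), gene names coloured by class. Cores lie near the start in mitotic kinesins, from 55 bases upstream in KIF23 to 31 bases downstream in KIF20B apart from a second match in KIF22, while the transport rows are mostly empty.

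All 12 mitotic kinesins fell after GAS41 knockdown, with log2 fold changes from -1.26 to -0.26 and a median of -0.78, and at each of them the shNT and shGAS41 libraries did not overlap. The largest adjusted p of the 12 was 0.000793. KIF2A, which works at spindle poles but also elsewhere, was classed as other and rose; with it counted as mitotic the median was -0.76. For all genes the share that fell was 34.5%, the share without overlap 72.3% and the median change -0.01. In RNA from whole cultures, fewer cells in a stage of the cell cycle and less of a transcript per cell cannot be told apart. The proliferation genes MKI67 (522 ± 37.2 to 297 ± 18.1 CPM), TOP2A (475 ± 15.1 to 315 ± 22.2 CPM) and PCNA (193 ± 12.2 to 90.9 ± 3.66 CPM) fell too, and the part of a change in cycling cells in the kinesin result was not tested.

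**Figure D2:**
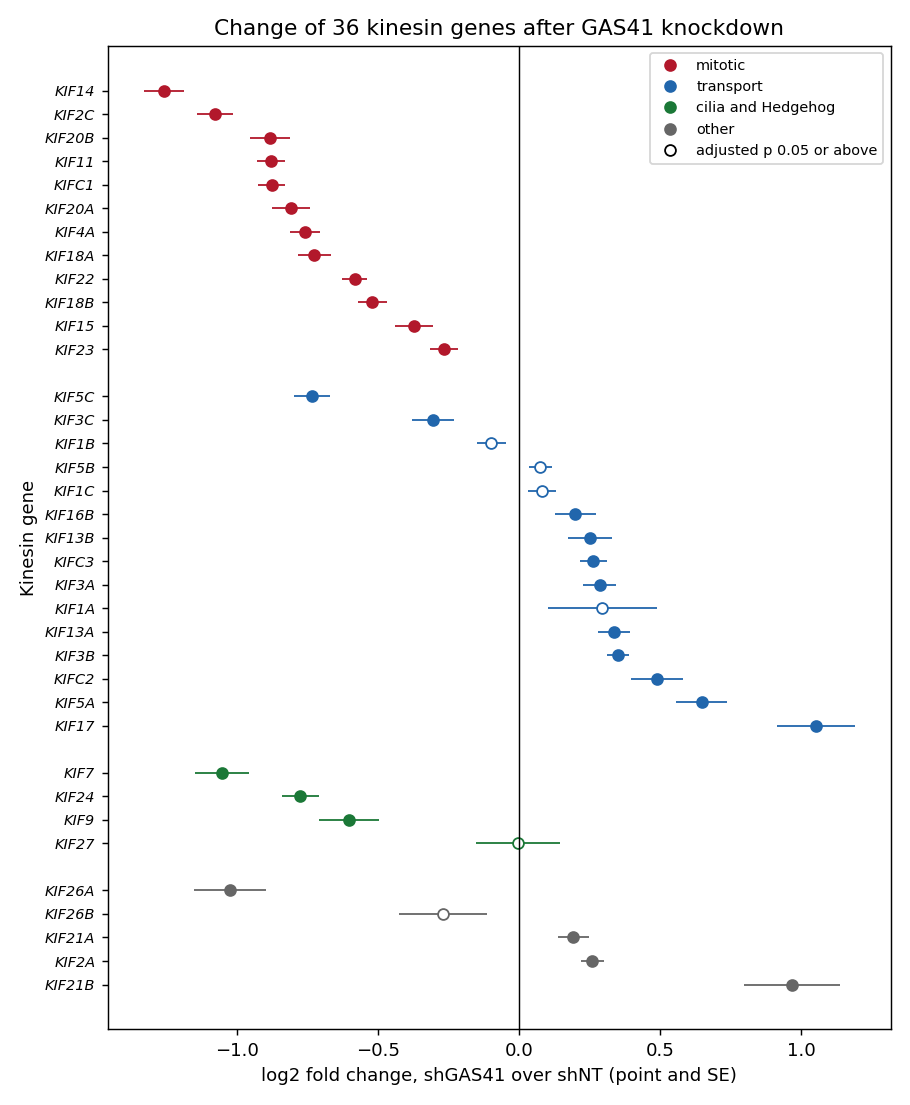
Log2 fold change of shGAS41 over shNT for the 36 kinesin motor genes, grouped by class, with the SE as bars and open circles for adjusted p of 0.05 or above. All 12 mitotic genes lie below 0, from KIF14 at -1.26 to KIF23 at -0.26, while the transport genes run from KIF5C at -0.73 to KIF17 at 1.05.

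Among the motors that set up the bipolar spindle, KIF11 (the kinesin-5 motor that slides antiparallel microtubules apart) went from 167 ± 7.50 to 90.7 ± 3.10 CPM (-0.88 ± 0.05, adjusted p = 2.22e-07). KIFC1, a minus-end motor that opposes it and gathers extra centrosomes into poles, fell from 167 ± 5.07 to 90.9 ± 3.09 CPM (-0.88 ± 0.05, adjusted p = 1.54e-07). Each kept 54.4% of its control level. KIF15, which can stand in for KIF11 in holding spindle poles apart, fell less, from 47.8 ± 0.870 to 36.9 ± 3.38 CPM (-0.37 ± 0.07, adjusted p = 0.000626). The ratio of KIF15 to KIF11 counts went from 0.287 ± 0.00753 in shNT to 0.406 ± 0.0236 in shGAS41, a 1.42-fold increase with no overlap between groups. The exact two-sided permutation p of that ratio was 0.1, the smallest that 3 libraries against 3 allow. The pair was chosen after its values were seen, so this p adds no support.

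The chromokinesins bind chromosome arms and push them from the poles. KIF4A, which also works with PRC1 on the central spindle, had 191, 189 and 199.8 CPM in shNT and 122, 109 and 112 CPM in shGAS41 (-0.76 ± 0.05, adjusted p = 7.55e-07). All 3 knockdown libraries lay far below the lowest control. Reads of KIF4A and its near-identical copy KIF4B may not be separable. KIF22, the other chromokinesin, went from 147 ± 3.51 to 97.9 ± 1.84 CPM (-0.58 ± 0.04, adjusted p = 1.20e-06).

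At kinetochores and microtubule plus ends, KIF2C takes microtubules apart and so corrects wrong attachments. KIF2C stood at 199.9, 208 and 197 CPM in shNT and at 105, 88.3 and 93.0 CPM in shGAS41, and kept 47.4% of its control level (-1.08 ± 0.06, adjusted p = 2.88e-07). The groups were separated by a wide gap. KIF18A, which damps chromosome movement at the metaphase plate, went from 62.5 ± 2.06 to 37.8 ± 2.17 CPM (-0.73 ± 0.06, adjusted p = 1.82e-06). Its relative KIF18B, which acts on astral microtubules, had 156, 176 and 164 CPM in shNT and 116, 114 and 116 CPM in shGAS41 (-0.52 ± 0.05, adjusted p = 9.32e-06). The knockdown values of KIF18B were nearly identical and the control values were more spread.

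The cytokinesis motors held both ends of the class. KIF14, which works with citron kinase and PRC1 at the midbody, was at 68.9, 67.4 and 72.8 CPM in shNT and at 31.7, 29.4 and 26.1 CPM in shGAS41 (-1.26 ± 0.07, 95% interval -1.42 to -1.10, adjusted p = 2.23e-07). This was the largest fall of the 36 motor genes, to 41.8% of control. KIF23, the motor of the centralspindlin complex, was at 213, 226 and 239 CPM in shNT and at 192, 185 and 187 CPM in shGAS41 (-0.26 ± 0.05, 95% interval -0.37 to -0.15, adjusted p = 0.000793). It was the smallest fall in the class, and the groups still did not overlap. The ratio of KIF23 to KIF14 counts rose 2.01-fold, from 3.24 ± 0.134 to 6.49 ± 0.578 (exact two-sided permutation p = 0.1). That pair, too, was chosen after its values were seen. KIF20A, which brings the chromosomal passenger complex to the central spindle, had 202, 201 and 198 CPM in shNT and 128, 107 and 108 CPM in shGAS41 (-0.81 ± 0.07, adjusted p = 2.56e-06). The first knockdown library was above both others of its group at KIF20A. KIF20B, another kinesin-6, went from 89.8 ± 8.49 to 48.7 ± 2.43 CPM (-0.88 ± 0.07, adjusted p = 1.96e-06).

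**Figure D3:**
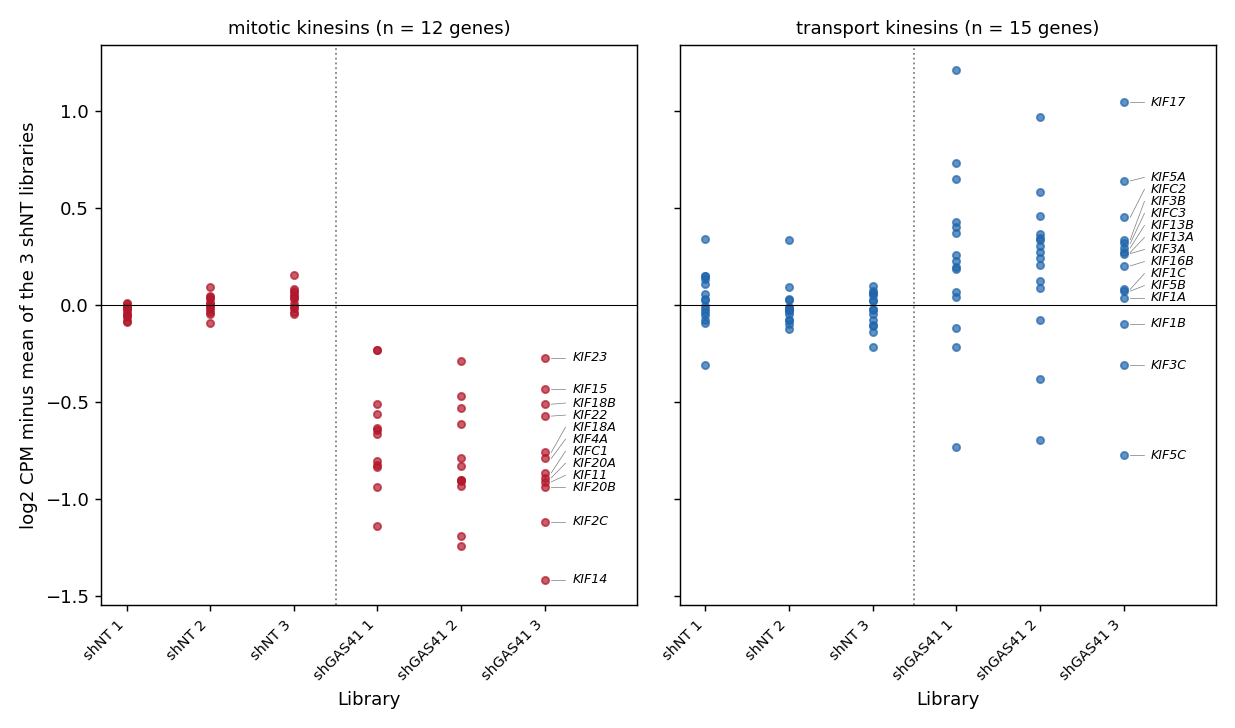
Each library's CPM for the 12 mitotic (left) and 15 transport (right) kinesins, as log2 difference from the mean of the 3 shNT libraries, 1 point per gene and library. Every mitotic gene sits below its control mean in all 3 shGAS41 libraries, while transport genes spread on both sides with KIF17 highest and KIF5C lowest.

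The 15 transport kinesins moved in both directions: 9 rose, 2 fell and 4 did not pass the test, with a median log2 fold change of 0.26 and a range from -0.73 to 1.05. The share that rose among all genes was 33.6%. The groups did not overlap at 13 of the 15, against 72.3% of all genes.

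KIF5 motors are conventional kinesin, which carries vesicles and mitochondria along axons and in other cells. Of their 3 heavy chain genes, KIF5A rose, KIF5C fell and KIF5B did not pass the test. KIF5B, the broadly expressed form, was at 332, 333 and 354 CPM in shNT and 356, 361 and 357 CPM in shGAS41. Its change of 0.08 ± 0.04 (95% interval -0.02 to 0.17, adjusted p = 0.132) did not pass the test, although it did without shNT replicate 3 (adjusted p = 0.0272). KIF5C, known mainly from neurons, had 30.5, 32.8 and 33.3 CPM in shNT and 19.4, 19.8 and 18.8 CPM in shGAS41 (-0.73 ± 0.06, adjusted p = 3.13e-06). KIF5A, also a neuronal form, was at 11.9, 10.6 and 9.72 CPM in shNT and at 17.8, 16.0 and 16.7 CPM in shGAS41 (0.65 ± 0.09, adjusted p = 9.69e-05). For both neuronal forms the groups were clear of each other, in opposite directions. Their ratio, KIF5A to KIF5C counts, went from 0.335 ± 0.050 to 0.870 ± 0.0568, 2.60-fold (exact two-sided permutation p = 0.1).

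Kinesin-2 motors carry cargo outward in cilia and in the cytoplasm, with KIF3A paired with KIF3B or KIF3C and joined to the adaptor KIFAP3. KIF3B had 176, 174 and 180.3 CPM in shNT and 229, 224 and 223 CPM in shGAS41 (0.35 ± 0.04, adjusted p = 2.34e-05). KIF3A went from 36.7 ± 2.16 to 44.7 ± 1.4 CPM (0.29 ± 0.06, adjusted p = 0.00155). KIF3C, the alternative partner, went the other way, with 43.6, 38.1 and 36.7 CPM in shNT and 33.9, 30.3 and 31.8 CPM in shGAS41 (-0.30 ± 0.08, adjusted p = 0.00444). The ratio of KIF3B to KIF3C counts was 4.51 ± 0.441 in shNT and 7.06 ± 0.332 in shGAS41, a 1.57-fold difference (exact two-sided permutation p = 0.1). KIFAP3 was at 24.9 ± 0.725 and 26.5 ± 1.27 CPM (0.09 ± 0.06, adjusted p = 0.225). KIF17, a kinesin-2 that works as a homodimer in dendrites and cilia, had 11.4, 8.26 and 7.75 CPM in shNT and 20.8, 17.6 and 18.6 CPM in shGAS41 (1.05 ± 0.14, 95% interval 0.75 to 1.36, adjusted p = 7.62e-05). It had the largest rise of the 36 motor genes, to 207% of control.

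The 4 ratios of gene pairs were chosen after their values were seen, so their p-values add no support. They give changes within a pair and not the amount of protein, and none of them can go below 0.1 in an exact test at this number of libraries.

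Kinesin-3 motors carry synaptic vesicle precursors, dense-core vesicles and endosomes. KIF1C was at 202, 219.9 and 224 CPM in shNT and at 221, 234 and 227 CPM in shGAS41, with overlap between the groups (0.08 ± 0.05, 95% interval -0.03 to 0.19, adjusted p = 0.178). KIF1B was at 137, 132 and 149 CPM in shNT and at 128, 132 and 130.1 CPM in shGAS41, and the groups all but touched (-0.10 ± 0.05, 95% interval -0.21 to 0.02, adjusted p = 0.113). KIF1A, at 1.99 ± 0.449 and 2.43 ± 0.365 CPM, was too thinly counted for a narrow estimate (0.30 ± 0.19, 95% interval -0.14 to 0.73, adjusted p = 0.198). Its value was 0.15 without shNT replicate 1 and 0.49 without shNT replicate 2. Leaving out shNT replicate 3 moved KIF1B to -0.04, and leaving out shNT replicate 1 moved KIF1C to 0.04. The intervals for KIF1B and KIF1C lie above -0.26, the smallest fall among the mitotic kinesins.

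Other kinesin-3 genes rose. KIF13A, which moves recycling endosomes, had 93.9, 85.6 and 91.5 CPM in shNT and 121, 112 and 109 CPM in shGAS41 (0.34 ± 0.06, adjusted p = 0.000384). Its relative KIF13B went from 11.9 ± 0.690 to 14.1 ± 0.572 CPM (0.25 ± 0.08, adjusted p = 0.0141), and KIF16B, a motor of early endosomes, from 15.4 ± 1.04 to 17.7 ± 0.0525 CPM (0.20 ± 0.07, adjusted p = 0.0326). These 2 calls were the least firm: KIF13B missed the threshold without shGAS41 replicate 2 or 3 (adjusted p = 0.0600 and 0.0532), and KIF16B without shNT replicate 2 or 3 or shGAS41 replicate 2 or 3, or with library size scaling (adjusted p from 0.0541 to 0.0924). The minus-end motors KIFC3 (63.3 ± 1.24 to 76.0 ± 2.58 CPM, 0.26 ± 0.05, adjusted p = 0.000612) and KIFC2 (15.8 ± 1.35 to 22.2 ± 2.30 CPM, 0.49 ± 0.09, adjusted p = 0.000872) rose.

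Of the 4 genes of cilia or Hedgehog signalling, 3 fell and 1 did not pass the test, where 34.5% of all genes fell. KIF7, which regulates GLI proteins at the tip of the primary cilium, had 9.97, 11.3 and 9.79 CPM in shNT and 4.98, 4.79 and 5.21 CPM in shGAS41 (-1.05 ± 0.09, adjusted p = 4.58e-06), the third largest fall of the 36 motor genes. KIF24, which restrains cilium growth by taking apart centriolar microtubules, went from 31.8 ± 1.13 to 18.6 ± 0.999 CPM (-0.78 ± 0.07, adjusted p = 2.92e-06). KIF7 overlaps TICRR (log2 fold change -0.91), and KIF24 overlaps NUDT2 (-0.67) and UBAP1 (0.37). Reads may be shared with these neighbours, and their share was not tested. KIF9, a gene of motile cilia, went from 11.2 ± 1.16 to 7.36 ± 0.743 CPM (-0.60 ± 0.11, adjusted p = 0.000557). KIF27, a close relative of KIF7, was at 5.14 ± 0.610 and 5.13 ± 1.00 CPM (95% interval -0.34 to 0.33, adjusted p = 0.985), with overlapping groups. KIF7 and KIF27 thus had different values under the same knockdown, though the difference between them was not tested.

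Among the 5 other motors, KIF2A, a microtubule depolymerase of spindle poles and neurons and a relative of KIF2C, rose from 106 ± 1.46 to 128 ± 1.86 CPM (0.26 ± 0.04, adjusted p = 0.000274). KIF21A, which restrains microtubule growth, rose from 145 ± 9.14 to 166 ± 6.72 CPM (0.19 ± 0.06, adjusted p = 0.0102). Its relative KIF21B had 1.31, 1.44 and 1.55 CPM in shNT and 3.24, 2.81 and 2.30 CPM in shGAS41 (0.97 ± 0.17, adjusted p = 0.000528). The knockdown values of KIF21B were spread but all above the controls. KIF26A, a family member without motor ATPase activity, had 7.98, 9.14 and 7.05 CPM in shNT and 4.27, 3.45 and 4.17 CPM in shGAS41 (-1.02 ± 0.13, adjusted p = 4.70e-05). KIF26B, its relative, was at 2.03 ± 0.240 and 1.68 ± 0.0723 CPM (-0.27 ± 0.16, 95% interval -0.61 to 0.08, adjusted p = 0.148), and at a log2 fold change of -0.17 without shNT replicate 2. KIF2A and KIF2C, relatives that both depolymerise microtubules, had changes of opposite sign.

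Summed over each class, mitotic kinesins took 1695, 1747 and 1766.5 CPM in shNT and 1114, 1024 and 1039.6 CPM in shGAS41, or 61.0% of control. Transport kinesins took 1187, 1177 and 1230.2 CPM in shNT and 1324, 1323 and 1311 CPM in shGAS41, or 110% of control. The ratio of the sums was 1.43, 1.48 and 1.44 in shNT and 0.842, 0.774 and 0.793 in shGAS41. The ratio was lower in every knockdown library than in any control library. Sums and ratios of reads also depend on transcript length, so their change between groups can be read but not which class is the more abundant, and genes with more reads lead the sums.

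**Figure D4:**
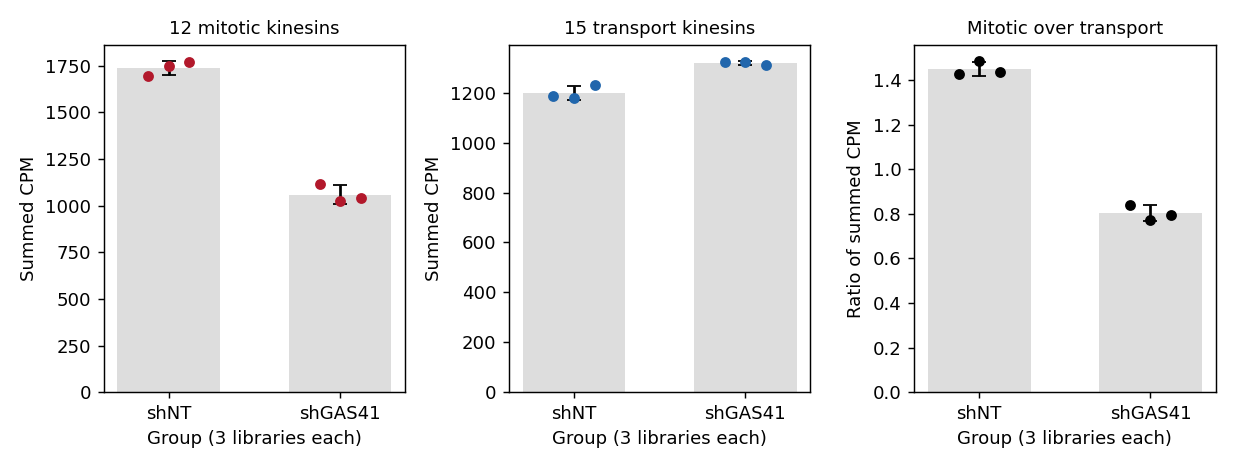
Summed CPM of the 12 mitotic and of the 15 transport kinesins and the ratio of the sums, with 1 point per library, bars at the group mean and error bars of 1 SD. The ratio lies between 1.43 and 1.48 in the shNT libraries and between 0.774 and 0.842 in the shGAS41 libraries.

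Companion genes were taken from lists of partners, drawn up with earlier results of these data known. The counts in these lists are therefore not independent support. All 16 listed partners of the mitotic kinesins fell (median -0.72, range -1.08 to -0.48), against 34.5% of all genes. They include CENPE, a kinesin-7 named by another symbol, which carries chromosomes to the spindle equator (117 ± 12.2 to 56.0 ± 6.45 CPM, -1.07 ± 0.09, adjusted p = 5.42e-06). CDK1, the kinase that starts mitosis and phosphorylates KIF11, went from 177 ± 8.90 to 83.7 ± 1.57 CPM (-1.08 ± 0.05, adjusted p = 6.03e-08). PLK1, a kinase of mitotic entry and cytokinesis, went from 233 ± 8.35 to 114 ± 5.85 CPM (-1.03 ± 0.05, adjusted p = 9.98e-08). RACGAP1, which pairs with KIF23, had a log2 fold change of -0.48, and PRC1 and CIT, which work with KIF4A and KIF14, of -0.70 and -0.71.

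Of 16 listed regulators of transcription in late cell cycle, 10 fell, 3 rose and 3 did not pass the test (median -0.48), against 34.5% of all genes falling and 33.6% rising. FOXM1 was at 344 ± 12 CPM in shNT and 147 ± 11.7 CPM in shGAS41 (-1.23 ± 0.06, adjusted p = 8.99e-08), and MYBL2 at 331 ± 17.8 and 187 ± 8.09 CPM (-0.83 ± 0.05, adjusted p = 4.29e-07). RBL2, the p130 pocket protein of the DREAM complex, rose from 53 ± 3.69 to 72.4 ± 3.35 CPM (0.45 ± 0.06, adjusted p = 8.77e-05), and E2F5, an E2F partner of it, from 52.5 ± 2.88 to 64.8 ± 1.35 CPM (0.30 ± 0.05, adjusted p = 0.000559). The NF-Y subunits went separate ways: NFYB fell (-0.89), NFYC rose (0.28), and NFYA was at 0.07 on the log2 scale (adjusted p = 0.268). LIN54, the subunit that contacts the homology region, fell (-0.18, adjusted p = 0.0192).

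Light chains and cargo adaptors of the transport motors gave 9 rises, 2 falls and 3 genes that did not pass the test (median 0.29, range -0.49 to 1.36). Over all genes 33.6% rose and 34.5% fell. MAPK8IP3, a scaffold that links kinesin-1 to vesicles, rose from 28.6 ± 2.96 to 51.2 ± 1.64 CPM (0.84 ± 0.07, adjusted p = 3.95e-06), and TRAK1, which ties kinesin-1 to mitochondria, from 34.5 ± 0.341 to 49.2 ± 1.12 CPM (0.51 ± 0.05, adjusted p = 7.30e-06). MAPK8IP2 fell (-0.49, adjusted p = 0.000577) and RHOT2, the mitochondrial anchor of the TRAK adaptors, fell (-0.20, adjusted p = 0.0111). The kinesin light chains KLC1, KLC3 and KLC4 rose, with log2 fold changes of 0.22, 1.36 and 0.35.

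Cytoplasmic dynein and dynactin, which drive transport toward the cell centre, had 11 rises, 8 falls and 5 genes that did not pass the test among 24 (median 0.03, range -0.51 to 1.08), where 33.6% of all genes rose and 34.5% fell. The count of falls dropped to 4 without shNT replicate 1 or 2 or shGAS41 replicate 2 or 3. DYNLL2 rose from 101 ± 2.74 to 155 ± 6.81 CPM and ACTR1B from 28.1 ± 0.874 to 43.5 ± 0.461 CPM, while DCTN3 fell from 73.1 ± 2.86 to 51.3 ± 1.82 CPM and DYNLL1 from 280.1 ± 2.08 to 219 ± 7.40 CPM. The dynein heavy chain DYNC1H1 was at 1295 ± 73.5 and 1271 ± 93.5 CPM (-0.03 ± 0.06, adjusted p = 0.701). Of 12 tubulins, 6 fell, 3 rose and 3 did not pass the test (median -0.23, range -0.53 to 1.46), beside 34.5% of all genes that fell and 33.6% that rose. TUBG1, the gamma-tubulin that seeds microtubules, fell from 112 ± 2.52 to 77.0 ± 1.76 CPM, and TUBB4B from 834 ± 21.9 to 598 ± 26.4 CPM. TUBB4A rose from 6.5 ± 0.964 to 11.4 ± 1.73 CPM, and TUBA4A from 0.497 ± 0.0919 to 1.38 ± 0.292 CPM. Tubulin genes are similar enough that some reads may be shared between them.

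In the authors' deposited table, which gives its own log2 fold change for each gene, 33.2% of all genes had an adjusted p under 0.05. Among the 36 motor genes, 13 passed in the authors' deposited table, 8 lower and 5 higher in the knockdown. For the mitotic class the authors' deposited table has a median of -0.28, with 4 of 12 passing: KIF2C at -0.43, KIF11 and KIFC1 at about -0.36 each and KIF18B at -0.34. All 12 mitotic values in the authors' deposited table are closer to 0 than those fitted to the counts. KIF14, the kinesin with the largest fall in the counts, has -0.41 in the authors' deposited table (adjusted p = 0.0902). For the transport class the authors' deposited table has a median of 0.26, with 5 genes higher and 1, KIF5C at -0.40, lower. KIF1A has 1.33 in the authors' deposited table (adjusted p = 0.00793), against 0.30 from the counts, a value that ran from 0.15 to 0.49 with 1 library left out. The signs differ at 4 motor genes, KIF3C, KIF26B, KIF1B and KIF27, and over all genes at 17.5%. The median difference over all genes, authors' deposited table minus counts, was 0.13, and the sources used here do not say how that table was fitted.

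**Figure D5:**
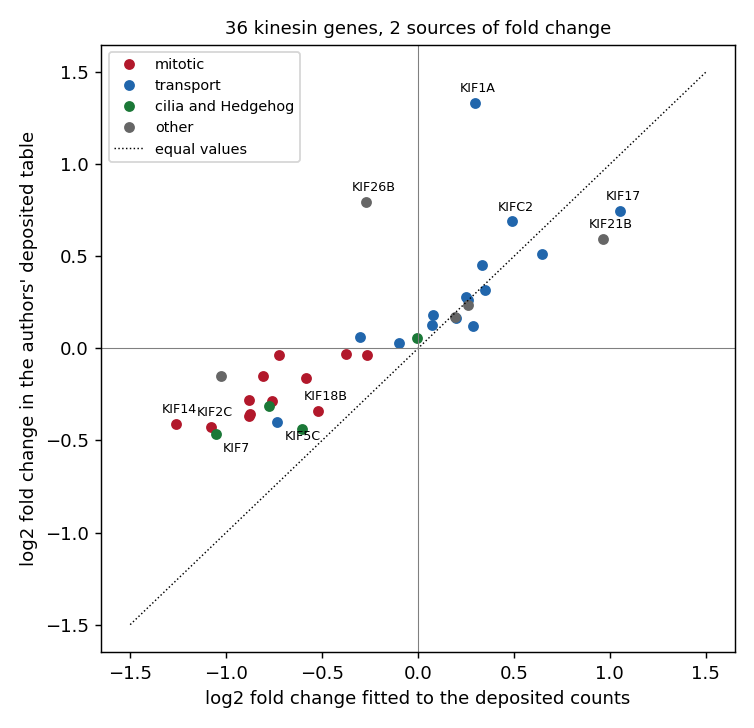
Log2 fold change in the authors' deposited table against the log2 fold change fitted to the deposited counts for 36 kinesin genes, coloured by class, with a dotted line of equal values. The mitotic genes lie above the line, at a median of -0.28 in the table against -0.78 from the counts, and KIF1A stands apart at 1.33 against 0.30.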

How the data were processed

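The members, classes and companion lists were chosen with earlier results of these data known. The deposited table holds whole-number counts per gene and library, made by the authors; for the series, TopHat2 2.0.10, HTSeq, Bowtie2 2.1.0, MACS 1.4.2, CASAVA 1.8.2 and build hg19 appear in the submitters' processing notes, without roles. The sources used here state neither annotation nor counting options nor use of strand, so overlapping or antisense genes may share reads. The same deposited table holds the authors' log2 fold changes, p-values and adjusted p-values.

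Counts were tested with edgeR 4.0.16 (limma 3.58.1, R 4.3.3): quasi-likelihood test, TMM scaling, filterByExpr (7 genes removed, 13846 kept), robust dispersion, Benjamini-Hochberg adjustment at 0.05 over all genes, shGAS41 against shNT, 3 libraries each. TMM-scaled CPM was computed from the counts. The typical variation between libraries was 7.58% and the median SE of a log2 fold change 0.08. On simulated counts for this comparison (13846 genes, 50 changed per size) the test recovered 42% of 1.25-fold, 78% of 1.5-fold, 96% of 2-fold and 100% of 4-fold changes. A much smaller share of genes changed there than the 68.1% called in the real counts. The Benjamini-Hochberg cut-off was therefore stricter in the simulation, and its recovery shares do not carry over directly. DESeq2 1.42.0, other scalings and filters, a replicate block and each library left out were alternatives. Ratios used the exact two-sided permutation test in SciPy 1.17.1.

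Every mitotic and transport kinesin was named. Library values were printed for the 5 of each with the largest mean CPM, the 3 largest rises and falls, those called against their class's majority, and YEATS4. Up to 2 rising and 2 falling genes of smallest p were named per companion list, and other companions because they pair with a named kinesin, after their values were seen. The 6 chromatin samples of the series were not analysed here. For want of transcript lengths no gene or class is called more abundant than another, and class sums and ratios of counts are read only for their change between groups.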

Additional observations from a re-analysis of the deposited data

How the results depend on the processing

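Of 504 refits of the 36 kinesin motor genes under 14 alternatives each, 489 kept direction and side of the threshold, 7 missed it, 1 gained it and 7 changed sign, and 32 genes kept both under every alternative. All 12 mitotic kinesins fell under all 14. With KIF2A, which rose, counted as mitotic the class median was -0.76 instead of -0.78. The exceptions were KIF13B, KIF16B and KIF5B, given above, and KIF27, whose change near 0 turned to 0.00365 with median-ratio size factors, 0.00392 with DESeq2 and 0.00643 with a filter of 1 CPM in 3 libraries, and ran from -0.171 to 0.0990 with each library left out. The transport median of 0.26 became 0.241 with library size scaling and 0.225 with KIF3A, KIF3B and KIF17 left out of the class, and ran from 0.235 to 0.281 with each library left out. The dynein and dynactin falls ran from 4 to 9 with each library left out. The cause was not tested. With a replicate block 10394 genes passed instead of 9425, and the kinesin counts stayed at 18 lower and 12 higher. Deviations of log CPM from each gene's group mean, not the levels themselves, were correlated between the groups. Same-numbered libraries gave 0.446, 0.0783 and 0.0940. Replicate 1 of both groups thus deviated together, and its correlations with the other numbers ran from -0.313 to -0.255. Not every library's deviations correlated best with its own number, so the numbers were not taken as pairs. Leaving replicate 1 out of both groups, an alternative chosen after seeing the data, gave 9992 genes and the same kinesin counts.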

Other observations

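Some kinesin genes overlap a neighbour in the RefSeq annotation, and the use of strand in counting is not given, so reads may be shared. KIF9-AS1, the antisense RNA to KIF9, had 4.43, 3.10 and 2.75 CPM in shNT and 6.88, 4.47 and 4.11 CPM in shGAS41 (0.58 ± 0.23, adjusted p = 0.0459 in edgeR's quasi-likelihood test). Its groups overlapped, and it missed the threshold without shNT replicate 2 (adjusted p = 0.127), shNT replicate 3 (0.149) or shGAS41 replicate 1 (0.148, where its log2 fold change was 0.32), and with library size scaling (0.0579). KIF9 itself moved the other way.

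KIF7 overlaps TICRR, a gene of replication initiation, which went from 49.4 ± 1.79 to 26.4 ± 1.98 CPM, a log2 change of -0.91 beside -1.05 for KIF7. KIF24 overlaps UBAP1 (0.37) and NUDT2 (-0.67), beside -0.78 for KIF24. KIF20A overlaps CDC23 (-0.23), KIF15 overlaps TMEM42 (0.20) and KIF2A overlaps DIMT1 (-0.18). TICRR moved in the same direction as KIF7 by a similar amount, and so did NUDT2 with KIF24, while UBAP1 rose. CDC23 fell by less than KIF20A (-0.81). For KIF15 and KIF2A the neighbour moved the opposite way. The share of reads that belongs to each neighbour was not tested.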
